A study of Mus musculus with 9 samples.

Results

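p53 (gene symbol *Trp53* in the mouse) and 9 of its classical target genes, *Mdm2*, *Ccng1*, *Bax*, *Bbc3*, *Pmaip1*, *Phlda3*, *Trp53inp1*, *Sesn1* and *Zmat3*, were followed in regenerating mouse liver. These 10 genes were taken by name from the 43346 genes of the count table, by a rule that used no measured value. Earlier results of these data were known when the genes were chosen. The study asked how NSC-87877 (NSC), a small molecule that inhibits the protein tyrosine phosphatase SHP2 and also SHP1, alters regeneration after a 70% partial hepatectomy, an operation that removes most of the liver and leaves a remnant that regrows. Whole liver of C57/BL6 mice (C57BL/6J in the study's methods), 12 weeks old, was profiled by bulk RNA-Seq in 3 groups of 3 biological replicates. The baseline group (vehicle, 0 h) holds resection specimens removed at surgery from vehicle-treated mice, the vehicle group holds remnants of vehicle-treated mice at 40 h, and the NSC group holds remnants at 40 h from mice given 7.5 mg/kg of NSC per dose, 2 doses a day by i.p. injection. Vehicle was saline, and dosing began before surgery, 12 h earlier according to the sample records. No resection specimen of an NSC-treated mouse was used here, and the same 3 vehicle baselines therefore serve both 40 h groups. Whether a baseline specimen and a remnant of the same number came from 1 mouse is not stated, and the NSC group differs from baseline in surgery, time and drug together.

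p53 is a transcription factor that is held at a low level in unstressed cells, chiefly by the ubiquitin ligase MDM2, and is stabilised after DNA damage or other stress. It then binds DNA and raises genes that halt the cell cycle, repair DNA, restrain growth signaling or trigger apoptosis, and *Mdm2* itself is one of them, which closes a negative feedback loop. Its activity is set mostly at the protein level, so the amount of *Trp53* transcript is not a measure of p53 activity. Liver regrows after hepatectomy because mature hepatocytes reenter the cell cycle, and DNA replication and mitosis are both under way in the mouse at about the time sampled here.

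Between 23997363 and 42887589 reads per library were counted on genes, and a count of 3 corresponded to 0.07 to 0.125 CPM (counts scaled to the size of the library). Libraries were scaled by the TMM method, and values below are TMM-normalized CPM unless stated otherwise. Differences are log2 fold changes ± SE from the quasi-likelihood test of edgeR, fitted to all 9 libraries, with p-values adjusted by the Benjamini-Hochberg method over the 15024 genes that passed the expression filter. All 10 genes passed it, and a gene was called at an adjusted p under 0.05. Hepatocyte markers marked the tissue as labelled, since the 8 markers summed to 92260 to 130100 CPM and none was at 0 in any library. NSC replicate 1 stood apart from the other NSC libraries: its 10 proliferation markers summed to 263 CPM, against 862 and 1022 CPM in the other NSC remnants, 385 to 477 CPM in vehicle remnants and 27.5 to 29.8 CPM at baseline. Its Kupffer cell and macrophage markers summed to 452 CPM, against 268 and 287 CPM in the other NSC remnants. Values without this library are given where leaving it out changed a call of a member or the count of a list by over 1.5-fold. The p-values rest on a spread estimated over all 9 libraries, 3 per group, with information shared across genes. An exact permutation test of 3 against 3 cannot give a 2-sided p below 0.1.

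p53 binds DNA at a decamer (3 purines, a C, a pair of A or T bases, a G and 3 pyrimidines), of which a full response element holds a tandem pair. To show the DNA that belongs to the members, promoter windows of 300 bases (250 before and 50 after the transcription start, RefSeq, GRCm38.p6) were searched for the decamer, whose reverse complement has the same form, and for a looser pattern of 2 cores 6 bases apart, as in a tandem pair, where a core is CAAG, its reverse complement CTTG, or either of the palindromes CATG and also CTAG. The promoter table held 10 windows for 7 of the 10 members. *Pmaip1*, *Trp53inp1* and *Zmat3* had none. A decamer was found in 5 of the 10 windows, 1 each of *Trp53*, *Mdm2*, *Ccng1*, *Bax* and *Sesn1*, against 8.36% of all 32851 windows. The core pair was found in the *Trp53* window, where it shares a core with the decamer, and in the most upstream of the 3 *Bbc3* windows, of which the other 2 overlap each other, against 7.22% of all windows. Neither pattern occurred in the window of *Phlda3*. The stretches from 250 to 51 bases before the start are shown for *Mdm2* and *Ccng1*, which rose after hepatectomy, and for *Sesn1* and *Bbc3*, which fell. Each runs 5′ to 3′ on the strand of the gene, and capitals mark the decamer (*Mdm2*, *Ccng1*, *Sesn1*) or the core pair (*Bbc3*).
Mdm2, chr10:117710809-117711008, minus strand: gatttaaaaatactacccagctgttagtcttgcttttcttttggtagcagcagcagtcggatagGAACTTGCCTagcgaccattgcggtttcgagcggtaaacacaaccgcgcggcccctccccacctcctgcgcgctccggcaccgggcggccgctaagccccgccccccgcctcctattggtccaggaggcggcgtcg
Ccng1, chr11:40755337-40755536, minus strand: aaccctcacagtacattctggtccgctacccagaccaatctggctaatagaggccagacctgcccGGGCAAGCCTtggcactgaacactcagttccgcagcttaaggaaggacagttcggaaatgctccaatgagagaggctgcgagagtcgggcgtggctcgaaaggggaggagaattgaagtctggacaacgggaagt
Sesn1, chr10:41887189-41887388, plus strand: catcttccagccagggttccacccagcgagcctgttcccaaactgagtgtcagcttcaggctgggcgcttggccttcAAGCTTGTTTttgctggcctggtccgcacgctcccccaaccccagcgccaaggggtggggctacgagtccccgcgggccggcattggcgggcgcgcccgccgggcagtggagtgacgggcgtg
Bbc3, chr7:16309333-16309532, plus strand: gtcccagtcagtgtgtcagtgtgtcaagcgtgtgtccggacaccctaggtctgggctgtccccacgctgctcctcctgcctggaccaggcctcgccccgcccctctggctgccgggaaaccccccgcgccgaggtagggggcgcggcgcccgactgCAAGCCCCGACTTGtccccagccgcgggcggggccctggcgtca
The decamer begins 186 bases before the start in *Mdm2*, 185 in *Ccng1* and 173 in *Sesn1*, and the core pair of *Bbc3* begins 94 bases before it. The *Sesn1* match lies in a window inside the gene (chr10:41887189-41887488). The *Sesn1* window at the upstream end of the gene (chr10:41810324-41810623) held neither pattern. These are matches of letters and not measured binding, and windows around transcription starts leave out most of the introns, where many p53 sites lie.

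Levels of the 10 genes differed widely when expressed per length of the counted exons. At baseline, *Trp53inp1* averaged 43.0 ± 30.6 CPM per kb (SD, n = 3) and *Bax* 27.4 ± 1.03 CPM per kb, and the libraries of these 2 genes overlapped. *Ccng1* (5.98 ± 0.465 CPM per kb) lay below *Bax* and above *Mdm2* (4.93 ± 0.127) in every baseline library. *Mdm2*, *Sesn1* (4.77 ± 0.867), *Trp53* (3.96 ± 0.680) and *Bbc3* (2.78 ± 0.689) followed, each overlapping its neighbour in this order. *Zmat3* and *Phlda3* were alike at 0.419 ± 0.0283 and 0.413 ± 0.0287 CPM per kb, with overlapping libraries, and *Pmaip1* was lowest at 0.120 ± 0.137 CPM per kb. In both 40 h groups *Bax* was highest, at 33.8 ± 0.686 CPM per kb with vehicle and 33.5 ± 12.8 with NSC, and *Pmaip1* lowest, at 0.156 ± 0.0475 and 0.384 ± 0.0767. *Ccng1* averaged 11.9 ± 3.27 CPM per kb with vehicle and 15.1 ± 1.17 with NSC, and overlapped *Trp53inp1* in both groups.

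**Figure D1:**
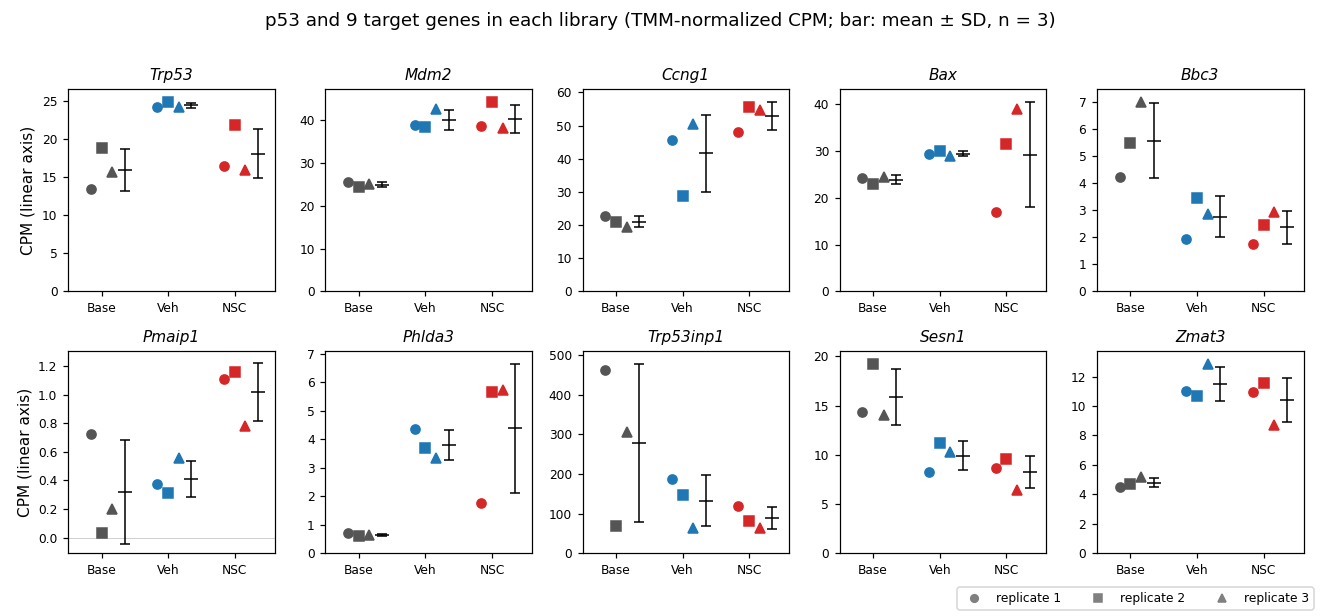
Normalized level (CPM, linear axis) of p53 and 9 target genes in each of the 9 libraries, grouped as baseline (Base), vehicle at 40 h (Veh) and NSC at 40 h (NSC); symbols mark replicate numbers, and each black bar is the mean ± SD of 3 libraries. *Mdm2* and *Zmat3* are higher and *Sesn1* and *Bbc3* lower in all 6 remnants than in the 3 baseline specimens, while *Trp53inp1* ranges from 67.9 to 462 CPM within the baseline group.

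After vehicle, 7 of the 10 members were called against baseline, where 23.7% of all tested genes were: *Phlda3*, *Zmat3*, *Ccng1*, *Mdm2* and *Trp53* rose, and *Bbc3* and *Sesn1* fell. These are 5 that rose and 2 that fell, where 12.7% of all tested genes rose and 11.0% fell. After NSC, 6 of the 10 were called against the same baseline, where 34.7% of all tested genes were: the same genes rose and fell except *Trp53*, which was not called. These are 4 that rose and 2 that fell, where 18.2% and 16.5% of all tested genes did. The median log2 fold change of the 10 members was 0.48 after vehicle and 0.49 after NSC, beside 0.01 over all tested genes in both comparisons. Of all calls, 53.7% were higher after vehicle and 52.4% after NSC. With a correction for GC content these shares were 39.4% and 41.0%, and with library size as the only scaling they were 55.3% and 65.4%. Groups did not overlap for 8 members after vehicle (6 higher and 2 lower), against 46.3% of tested genes (24.2% higher and 22.0% lower). They did not overlap for 7 members after NSC (5 higher and 2 lower), against 47.1% of tested genes (24.0% higher and 23.1% lower). In whole liver, fewer cells of a type and less RNA per cell cannot be told apart. The vehicle count fell to 4 without vehicle replicate 1 or without vehicle replicate 3, and of the called members only *Phlda3* also passed an absolute log2 fold change of 1.5, in both comparisons, as 7.22% and 8.13% of all tested genes did.

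*Trp53* (ENSMUSG00000059552, chr11:69580359-69591873 of GRCm38, plus strand) encodes p53. Its level was 13.4, 18.9 and 15.7 CPM in the 3 baseline specimens, 24.3, 24.9 and 24.3 CPM in the vehicle remnants, and 16.6, 21.9 and 16.0 CPM in the NSC remnants. The vehicle remnants lay above every other library and within 1.03-fold of each other, whereas the NSC remnants overlapped the baseline range. *Trp53* rose by 0.61 ± 0.17 after vehicle (edgeR adjusted p = 0.0213), and its difference from baseline after NSC was 0.18 ± 0.17 (edgeR adjusted p = 0.435). The direct difference, NSC minus vehicle, was −0.43 ± 0.17, with an unadjusted edgeR p of 0.0252 and an adjusted p of 0.197, and lay between −0.80 and −0.06 (95% confidence interval). The vehicle call was lost in 5 fits that left out 1 library each: baseline replicate 1 (adjusted p = 0.0969) or 3 (0.0712), or vehicle replicate 1 (0.0596), 2 (0.0560) or 3 (0.0521).

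*Mdm2* (ENSMUSG00000020184, chr10:117688888-117710758, minus strand) encodes the ligase that marks p53 for degradation and is the target that closes the feedback loop. It measured 25.6, 24.3 and 25.0 CPM at baseline, 38.9, 38.4 and 42.7 CPM after vehicle, and 38.8, 44.2 and 38.3 CPM after NSC. Every remnant was above every baseline specimen, and the 2 remnant groups covered the same range. *Mdm2* rose by 0.68 ± 0.13 after vehicle (edgeR adjusted p = 0.00279) and by 0.69 ± 0.13 after NSC (edgeR adjusted p = 0.00165). With NSC it differed from vehicle by 0.02, with a 95% confidence interval of −0.26 to 0.29. Its relative *Mdm4*, which binds p53 without degrading it, measured 48.0 to 49.4 CPM at baseline, 53.6 to 64.2 CPM after vehicle and 64.3 to 85.2 CPM after NSC. *Mdm4* rose after NSC (0.56 ± 0.15, edgeR adjusted p = 0.0111), with a difference of 0.26 ± 0.14 after vehicle (edgeR adjusted p = 0.219) and a difference between remnants of 0.30 ± 0.14 (edgeR adjusted p = 0.274). The p53 relatives *Trp63* and *Trp73* did not reach the expression filter and lay at or below 0.0518 CPM in every library.

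Among targets that act on growth and RNA, *Ccng1* (ENSMUSG00000020326, chr11:40748552-40755311, minus strand) encodes cyclin G1, a partner of protein phosphatase 2A that acts back on MDM2. It measured 22.7, 20.8 and 19.5 CPM at baseline, 45.7, 28.6 and 50.5 CPM after vehicle, and 48.2, 55.8 and 54.7 CPM after NSC. Vehicle replicate 2 lay well below the other remnants, though above every baseline specimen. *Ccng1* rose by 0.99 ± 0.19 after vehicle (edgeR adjusted p = 0.00353) and by 1.33 ± 0.19 after NSC (edgeR adjusted p = 0.000454), and the difference between remnants was 0.35, with a 95% confidence interval of −0.06 to 0.76. Its relative *Ccng2* was not called with all libraries, with differences of −0.25 ± 0.27 after vehicle and 0.62 ± 0.27 after NSC (edgeR adjusted p = 0.545 and 0.0951). The GC correction brought the rise of *Ccng1* after NSC to 0.79 and that of *Mdm2* to 0.42, and both remained called (edgeR adjusted p = 0.00404 and 0.0121).

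*Zmat3* (ENSMUSG00000027663, chr3:32334792-32366014, minus strand) encodes a zinc finger protein that binds RNA. It measured 4.52, 4.70 and 5.15 CPM at baseline, 11.0, 10.7 and 12.8 CPM after vehicle, and 11.0, 11.6 and 8.73 CPM after NSC. All remnants were clearly above baseline, and baseline specimens lay within 1.14-fold of each other. *Zmat3* rose by 1.26 ± 0.18 after vehicle (edgeR adjusted p = 0.000602) and by 1.12 ± 0.18 after NSC (edgeR adjusted p = 0.000776). The difference between the remnant groups was −0.14, with a 95% confidence interval of −0.52 to 0.24. Of its relatives *Zmat1*, *Zmat2* and *Zmat5*, none was called in any comparison with all libraries, with log2 fold changes between −0.73 and 0.51, and *Zmat4* was listed at 0 in every library.

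*Phlda3* (ENSMUSG00000041801, chr1:135766119-135769136, plus strand) encodes a small pleckstrin homology domain protein that restrains AKT. It showed the steepest rise of the 10 genes, from 0.695, 0.611 and 0.627 CPM at baseline (22, 20 and 19 counts) to 4.35, 3.71 and 3.32 CPM after vehicle and 1.77, 5.64 and 5.71 CPM after NSC. No remnant reached down to baseline, but NSC replicate 1 lay below every vehicle remnant while the other NSC remnants lay above them. *Phlda3* rose by 2.55 ± 0.41 after vehicle (5.87-fold, edgeR adjusted p = 0.00127) and by 2.75 ± 0.41 after NSC (6.73-fold, edgeR adjusted p = 0.000569). The difference between remnants was 0.20, with a 95% confidence interval of −0.60 to 1.00, and leaving out NSC replicate 1 gave 0.57 (adjusted p = 0.154 by edgeR). Its relative *Phlda1* varied from 4.36 to 29.2 CPM within the baseline group and was not called, with differences of 1.21 ± 0.67 after vehicle and 1.31 ± 0.67 after NSC.

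Members of the apoptosis branch did not move together. *Bax* (ENSMUSG00000003873, chr7:45461695-45466898, minus strand) encodes a protein that opens pores in the outer mitochondrial membrane. It measured 24.2, 22.8 and 24.5 CPM at baseline, 29.4, 30.0 and 28.8 CPM after vehicle, and 17.0, 31.5 and 38.9 CPM after NSC. The vehicle remnants all lay above baseline within a narrow band, whereas NSC replicate 1 was the lowest of all 9 libraries and NSC replicate 3 the highest. *Bax* was not called, with differences of 0.30 ± 0.23 after vehicle (edgeR adjusted p = 0.377) and 0.29 ± 0.23 after NSC (edgeR adjusted p = 0.360). Without NSC replicate 1 the NSC difference was 0.56 (edgeR adjusted p = 0.00875), and with the GC correction on all libraries it was 0.79 (edgeR adjusted p = 0.0138). The related pore-forming genes *Bak1* and *Bok* were not called, with differences from baseline between 0.15 and 0.49.

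*Bbc3* (ENSMUSG00000002083, chr7:16309616-16318205, plus strand) encodes PUMA, a BH3-only protein that neutralises the BCL2 family of survival proteins. It measured 4.23, 5.50 and 7.0 CPM at baseline, 1.95, 3.47 and 2.88 CPM after vehicle, and 1.74, 2.45 and 2.94 CPM after NSC. Every remnant was below every baseline specimen. *Bbc3* fell by 1.01 ± 0.30 on the log2 scale after vehicle (edgeR adjusted p = 0.0283) and by 1.24 ± 0.30 after NSC (edgeR adjusted p = 0.00809), with a difference between remnants of −0.23 and a 95% confidence interval of −0.89 to 0.44. The vehicle call was lost without baseline replicate 2 or 3 or vehicle replicate 1 or 3 (edgeR adjusted p of 0.0560, 0.125, 0.119 and 0.0732). The NSC call was lost with the GC correction, where the fall was 0.71 (edgeR adjusted p = 0.0679).

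*Pmaip1* (ENSMUSG00000024521, chr18:66458604-66465550, plus strand) encodes NOXA, another BH3-only protein. It was barely detected, with 23, 1 and 6 counts at baseline, 15, 12 and 15 counts after vehicle, and 37, 34 and 20 counts after NSC, or 0.0305 to 0.727, 0.311 to 0.554 and 0.783 to 1.16 CPM. The NSC remnants lay above the other 6 libraries, but baseline replicate 1 came close to the lowest of them. *Pmaip1* was not called, with differences of 0.35 ± 0.70 after vehicle (edgeR adjusted p = 0.758), 1.67 ± 0.67 after NSC (edgeR adjusted p = 0.0725) and 1.32 ± 0.65 between remnants (edgeR adjusted p = 0.285). The NSC difference passed the threshold without baseline replicate 1 (3.14, edgeR adjusted p = 0.00756), with DESeq2 (adjusted p = 0.0497) and with the exact test of edgeR (adjusted p = 0.0407). Among other BH3-only genes, *Bmf* fell by 2.50 ± 0.37 after vehicle and 2.40 ± 0.37 after NSC (edgeR adjusted p = 0.000897 and 0.000732). *Bik* and *Bid* fell as well, by 1.58 ± 0.33 and 0.95 ± 0.20 after vehicle and by 1.30 ± 0.32 and 0.66 ± 0.20 after NSC. *Bad* and *Bcl2l11* were not called, and *Hrk* lay below the expression filter.

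Of the stress-response targets, *Sesn1* (ENSMUSG00000038332, chr10:41810574-41908424, plus strand) encodes sestrin 1, which restrains mTORC1 and limits oxidative damage. It measured 14.3, 19.2 and 14.1 CPM at baseline, 8.26, 11.2 and 10.3 CPM after vehicle, and 8.70, 9.54 and 6.46 CPM after NSC. All 6 remnants were below all 3 baseline specimens. *Sesn1* fell by 0.68 ± 0.20 after vehicle (edgeR adjusted p = 0.0275) and by 0.95 ± 0.20 after NSC (edgeR adjusted p = 0.00400), and the difference between remnants was −0.26, with a 95% confidence interval of −0.70 to 0.18. The vehicle call was lost without baseline replicate 2 (edgeR adjusted p = 0.109) and without vehicle replicate 1 (0.122) or 3 (0.0689). *Sesn2* fell too, from 10.2 to 18.5 CPM at baseline to 5.09 to 7.36 CPM after vehicle and 5.24 to 6.21 CPM after NSC (edgeR adjusted p = 0.00959 and 0.00251), whereas *Sesn3* was not called and stayed between 3.91 and 5.67 CPM in all libraries.

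*Trp53inp1* (ENSMUSG00000028211, chr4:11156431-11174379, plus strand) encodes a nuclear stress protein that acts with p53 and in autophagy. It measured 462, 67.9 and 305 CPM at baseline, 187, 147 and 62.9 CPM after vehicle, and 118, 81.0 and 64.5 CPM after NSC. The baseline specimens alone spanned 6.81-fold, and baseline replicate 2 lay within the range of both remnant groups. *Trp53inp1* was not called, with differences of −1.07 ± 0.68 after vehicle (edgeR adjusted p = 0.301) and −1.66 ± 0.69 after NSC (edgeR adjusted p = 0.104). Without baseline replicate 2 the differences were −1.53 (edgeR adjusted p = 0.0440) and −2.13 (edgeR adjusted p = 0.00945), and the NSC difference also passed the threshold with the exact test of edgeR (adjusted p = 0.0427) and with the GC correction (−2.27, adjusted p = 0.0444). *Trp53inp2* was not called, with differences of 0.05 ± 0.17 and −0.08 ± 0.17.

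**Figure D2:**
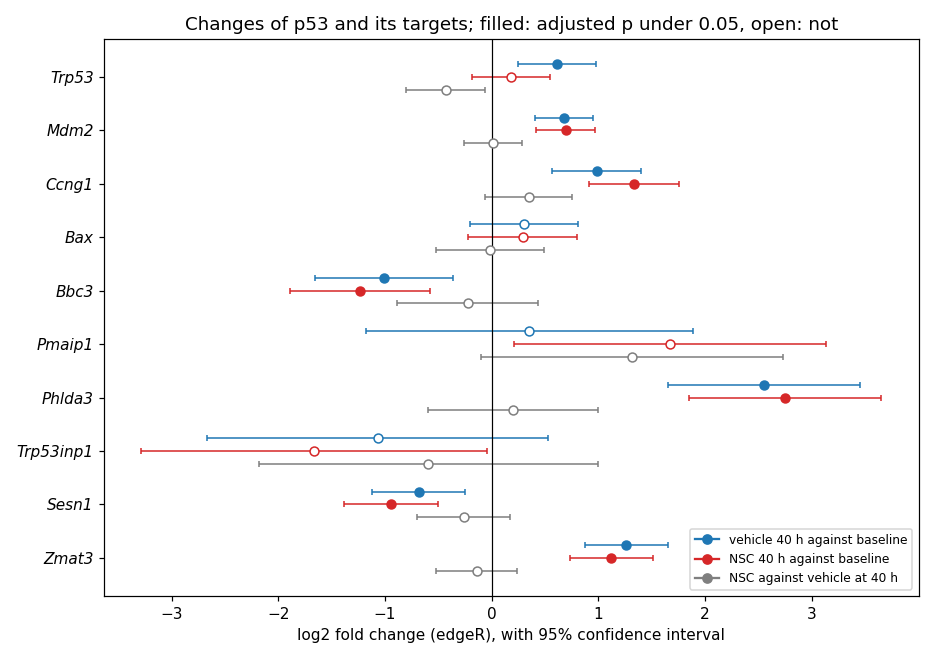
Log2 fold change (x axis) of each of the 10 genes (y axis) with its 95% confidence interval from edgeR, for vehicle at 40 h against baseline (blue), NSC at 40 h against baseline (red) and NSC against vehicle at 40 h (grey); filled points have an adjusted p under 0.05. The blue and red points fall on the same side of 0 for every gene, and all grey points are open, with *Trp53* at −0.43 the only grey interval that leaves out 0.

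Directly between remnants, none of the 10 members was called by edgeR, and 1, *Trp53*, had an unadjusted p under 0.05. Among all tested genes, 6 (0.0399%) were called, all lower with NSC, and 19.5% had an unadjusted p under 0.05. DESeq2 called none of the 10 either, nor did the exact test of edgeR or the fits that left out 1 library each. The median log2 fold change of the members was −0.08, beside 0.02 over all tested genes. Groups did not overlap for *Pmaip1* (higher with NSC) and *Trp53* (lower with NSC), 2 of 10, against 22.5% of tested genes (10.3% higher and 12.2% lower). Without NSC replicate 1 the count of all called genes was 994 and that of the members remained 0. The intervals given above bound the difference more tightly for *Mdm2* than for *Trp53inp1*, where it lay between −2.18 and 0.99.

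*Cdkn1a*, which encodes the CDK inhibitor p21 and is the best known p53 target, measured 35.7, 6.54 and 20.4 CPM at baseline, 100, 90.9 and 59.7 CPM after vehicle, and 60.2, 61.5 and 59.6 CPM after NSC. It rose by 2.00 ± 0.53 after vehicle (edgeR adjusted p = 0.0295), with differences of 1.53 ± 0.52 after NSC (edgeR adjusted p = 0.0540) and −0.47 ± 0.51 between remnants (edgeR adjusted p = 0.639). All remnants lay above all baseline specimens, and the NSC remnants were nearly equal to each other. Over the alternatives tried, its adjusted p ran from 2.59e-05 to 0.0942 after vehicle and from 0.00130 to 0.141 after NSC, and the vehicle call was lost without baseline replicate 3 (0.0942), vehicle replicate 1 (0.0870) or 2 (0.0652), or NSC replicate 1 (0.0557), and also with only the 2 groups compared (0.0780) or every gene of at least 1 count (0.0746). The NSC difference passed the threshold in 7 of 19 settings: DESeq2, the exact test, library size only, at least 10 counts in every library, the GC correction, and without baseline replicate 1 (2.16, edgeR adjusted p = 0.0105) or 2 (1.10, edgeR adjusted p = 0.00999).

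The wider pathway was followed in lists of p53 regulators and of other targets, grouped by what they do. Counts of called genes in these lists are read against all tested genes, of which 12.7% rose and 11.0% fell after vehicle, and 18.2% rose and 16.5% fell after NSC. Of 16 tested regulators of p53 activity, 3 rose and 1 fell after vehicle, beside 23.7% of all tested genes called, and 7 rose and 1 fell after NSC, beside 34.7%. The vehicle count is near that background. The median log2 fold change of the list was 0.04 and 0.25, beside 0.01 over all tested genes. *Chek1* and *Chek2*, the checkpoint kinases that signal replication stress and DNA breaks, rose by 2.85 ± 0.28 and 1.43 ± 0.31 after vehicle and by 3.65 ± 0.29 and 2.20 ± 0.31 after NSC. The deacetylase gene *Sirt1* rose by 0.69 ± 0.23 and 0.97 ± 0.23, the acetyltransferase gene *Crebbp* fell by 0.47 ± 0.14 and 0.57 ± 0.14, and the kinase gene *Atr* rose by 0.98 ± 0.19 after NSC (0.52 ± 0.19 after vehicle, edgeR adjusted p = 0.0609). The vehicle count of 4 calls was 2 without baseline replicate 1 or 3 or vehicle replicate 1 or 3, and the NSC count of 8 was 5 without NSC replicate 2.

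Of 10 growth arrest targets, *Cdkn1a* included, 5 rose and 1 fell after vehicle (23.7% of all tested genes were called), and 3 rose and 2 fell after NSC (34.7%), with list medians of 1.24 and 0.28. *Psrc1*, *Ckap2* and *Gtse1*, which encode microtubule-associated proteins of dividing cells, rose by 4.98 ± 0.83, 6.78 ± 1.08 and 3.73 ± 0.86 after vehicle and by 5.31 ± 0.83, 8.16 ± 1.10 and 3.94 ± 0.86 after NSC. These 3 genes were the only ones of the list that rose after NSC, and after vehicle the only others were *Cdkn1a* and *Btg2*. The counts and medians of this list are therefore not a measure of growth arrest. Their baseline levels were low, and *Psrc1* had 0.0305 to 0.190 CPM there. *Btg2*, an antiproliferative gene, measured 100, 34.8 and 39.1 CPM at baseline, 334, 381 and 164 CPM after vehicle, and 51.1, 77.6 and 43.6 CPM after NSC. It rose after vehicle (2.34 ± 0.49, edgeR adjusted p = 0.0111), with a difference of −0.02 ± 0.47 after NSC, and between remnants it differed by −2.35 ± 0.49 without being called (edgeR adjusted p = 0.0905). *Ypel3* fell by 1.13 ± 0.15 after vehicle and 1.48 ± 0.15 after NSC. *Plk3*, a stress-response kinase gene, was the only gene of these lists called between remnants with all libraries: it measured 168, 140 and 130 CPM at baseline, 117, 150 and 76.3 CPM after vehicle, and 43.9, 36.7 and 32.6 CPM after NSC. It was lower with NSC than with vehicle by −1.60 ± 0.23 (edgeR adjusted p = 0.0470), and the list held no such call without any 1 of the baseline replicates, vehicle replicate 1 or 2, or NSC replicate 2 or 3. Without NSC replicate 1, where 6.46% of 15390 tested genes were called between remnants, *Plk3* remained called (−1.73 ± 0.25, edgeR adjusted p = 0.00285). The other calls of these lists in that fit were *Ckap2* (1.90 ± 0.17), *Chek1* (0.94 ± 0.24), *Chek2* (1.05 ± 0.23), *Eda2r* (0.98 ± 0.27), *Perp* (0.60 ± 0.15) and *Rps27l* (0.78 ± 0.17), all higher with NSC, and *Tsc2* (−0.66 ± 0.16), lower with NSC. Among relatives of the members they were *Ccng2* (1.12 ± 0.21) and *Zmat2* (0.58 ± 0.16), both higher with NSC. These genes were named after their values were seen, and each of the lists they belong to held 2 calls, while that of DNA repair and nucleotide supply held 0.

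Of 13 cell death targets, 6 rose and 1 fell in each comparison with baseline, where 12.7% and 11.0% of all tested genes rose and fell after vehicle and 18.2% and 16.5% after NSC, with list medians of 0.70 after vehicle and 0.52 after NSC. *Eda2r*, a receptor of the TNF family, rose from 0.214 to 0.253 CPM at baseline to 2.03 to 2.81 CPM after vehicle and 4.23 to 5.30 CPM after NSC (3.35 ± 0.30 and 4.29 ± 0.30, edgeR adjusted p = 4.66e-05 and 5.35e-06). Its remnant groups did not overlap, and the direct difference of 0.93 ± 0.24 was not called (edgeR adjusted p = 0.0965). *Tnfrsf10b*, the TRAIL receptor gene, rose by 3.11 ± 0.41 and 3.00 ± 0.41, *Apaf1*, the scaffold of the apoptosome, by 1.45 ± 0.23 and 1.67 ± 0.23, and the nuclease gene *Aen* by 1.35 ± 0.15 and 1.05 ± 0.15. *Bid* was the member of the list that fell.

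Of 6 targets in DNA repair and nucleotide supply, 2 rose and 1 fell in each comparison with baseline (23.7% and 34.7% of all tested genes were called), with list medians of −0.13 and 0.14. *Polh* and *Polk*, translesion DNA polymerase genes, rose by 1.45 ± 0.29 and 0.82 ± 0.24 after vehicle and by 1.72 ± 0.29 and 1.17 ± 0.24 after NSC, whereas *Xpc*, a sensor of damaged DNA, fell by 0.69 ± 0.19 and 0.98 ± 0.19. Without baseline replicate 3 or vehicle replicate 3 the vehicle count was 1 of 6. Of 20 targets in metabolism, redox control and secreted factors, 3 rose and 8 fell after vehicle and 2 rose and 10 fell after NSC. Of all tested genes, 12.7% rose and 11.0% fell after vehicle, and 18.2% rose and 16.5% fell after NSC. The medians of this list were −0.34 and −0.62. *Ddit4*, an inhibitor of mTORC1, fell by 2.59 ± 0.33 and 1.82 ± 0.32, and *Gls2*, the liver glutaminase gene, went from 398 to 522 CPM at baseline to 162 to 226 CPM after vehicle and 119 to 167 CPM after NSC (edgeR adjusted p = 0.000729 and 0.000122). *Fdxr* fell by 0.72 ± 0.20 after vehicle and 1.24 ± 0.20 after NSC, and *Tsc2* fell by 0.92 ± 0.15 after NSC (−0.34 ± 0.15 after vehicle, edgeR adjusted p = 0.106). *Cgref1* and *Ak1* rose in both comparisons (3.33 ± 0.51 and 2.02 ± 0.47 after vehicle), and *Lif* rose after vehicle from at most 0.126 CPM to 0.369 to 0.700 CPM. The vehicle count of 11 was 7 without baseline replicate 1 or 3 or vehicle replicate 3. Relatives of the 10 members, 16 of them tested, held 0 that rose and 4 that fell after vehicle and 1 and 4 after NSC, with list medians of −0.17 and −0.18. In total these counts are near the 23.7% and 34.7% of all tested genes that were called, but most of the calls were falls. Of all tested genes, 11.0% fell after vehicle and 16.5% after NSC. *Mdm4*, *Sesn2* and *Bid* belong to other lists as well and are counted again here. The NSC count of 5 was 9 without NSC replicate 1 and 3 without NSC replicate 2.

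**Figure D3:**
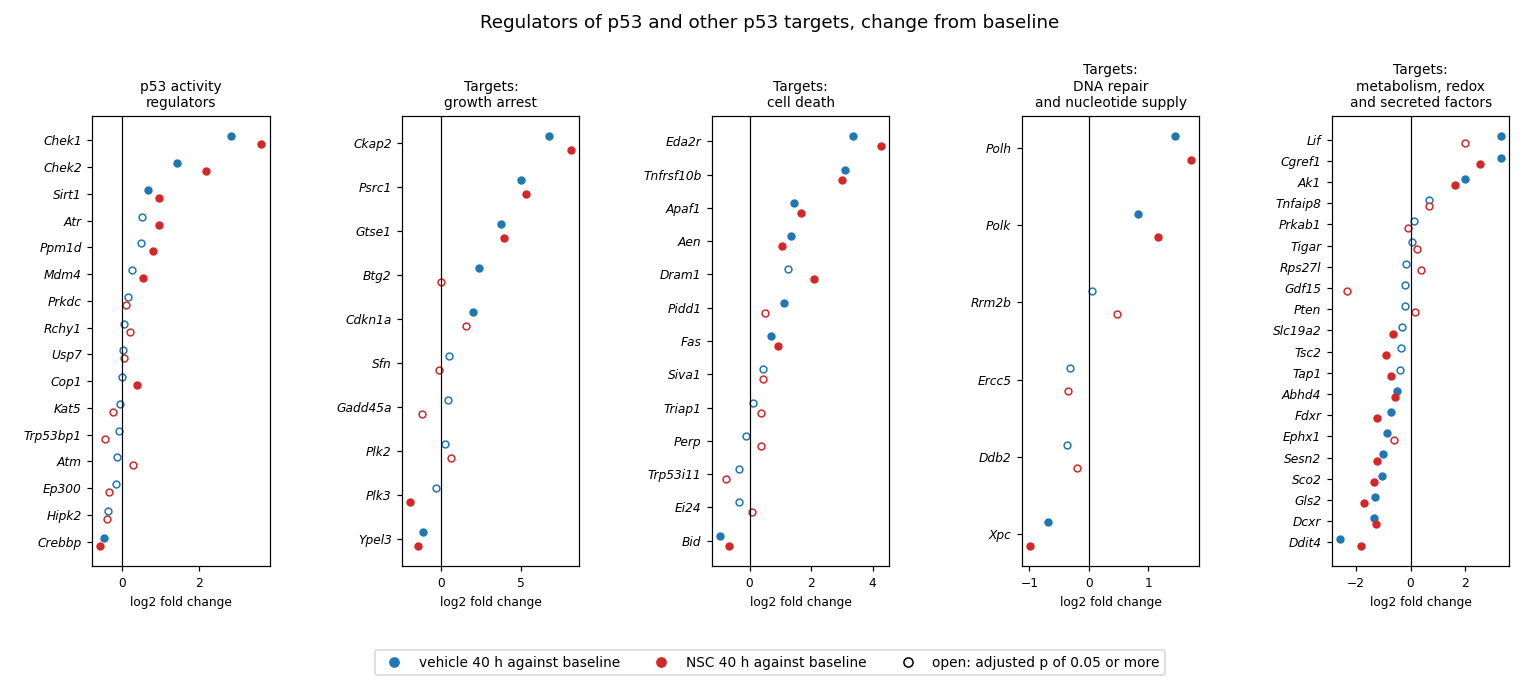
Log2 fold change from baseline (x axes, with a range of their own in each panel) of 16 regulators of p53 and 49 other p53 targets in 4 functional groups, after vehicle (blue) and after NSC (red); filled points have an edgeR adjusted p under 0.05. Calls among cell death targets are mostly to the right of 0 and calls among metabolic targets mostly to the left.

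Proliferation markers moved with several of these values. All 10 rose in both comparisons with baseline, with median log2 fold changes of 5.27 after vehicle and 6.41 after NSC, and none was called between remnants (8 were without NSC replicate 1). NSC replicate 1, lowest of the remnants in the sum of these markers though not in *Pcna* (56.0 CPM) or *Mcm5* (37.6 CPM), was also the lowest remnant for *Phlda3* (1.77 CPM) and *Bax* (17.0 CPM), but for *Mdm2* (38.8 CPM) and *Ccng1* (48.2 CPM) it lay inside the range of the other remnants. *Psrc1*, *Ckap2* and *Gtse1* were also lowest there among the remnants, at 1.08, 7.74 and 2.82 CPM. The part of proliferation in these values was not tested.

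**Figure D4:**
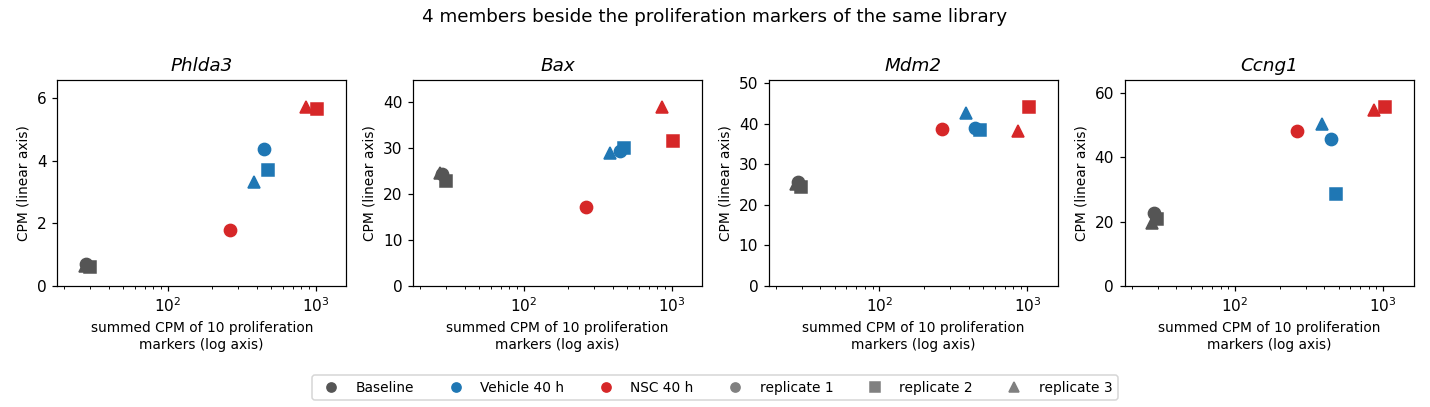
Level (CPM, linear y axes) of *Phlda3*, *Bax*, *Mdm2* and *Ccng1* against the summed CPM of 10 proliferation markers (log x axes) in the same library, with colors for groups and symbols for replicate numbers. NSC replicate 1 (red circle, 263 CPM of markers) is lowest among the remnants for *Phlda3* and *Bax* but not for *Mdm2* and *Ccng1*.

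Marker lists of other cell types were followed as well. Of all tested genes, 12.7% rose and 11.0% fell after vehicle, and 18.2% rose and 16.5% fell after NSC. Some counts below, such as 1 of 7 stellate cell markers rising after NSC, are near these shares. Cholangiocyte markers summed to 37.8 to 40.6 CPM at baseline, 76.0 to 115 CPM after vehicle and 79.0 to 122 CPM after NSC, with 4 and 3 of 5 markers rising. *Spp1* made up most of each of these sums, with means of 33.2, 73.2 and 84.3 CPM. Between remnants 3 of the 5 were lower with NSC and 2 higher, none called, and *Krt19* averaged 3.93 CPM after vehicle and 1.85 CPM after NSC. Kupffer cell and macrophage markers summed to 128 to 188, 136 to 243 and 268 to 452 CPM, with 2 and 5 of 7 rising, and stellate cell markers to 178 to 214, 274 to 333 and 212 to 354 CPM, with 4 and 1 of 7 rising. *Dcn* was the largest part of the stellate sums (means of 124, 170 and 187 CPM), whereas *Col1a1* averaged 3.76, 45.25 and 9.15 CPM. Of the 7 stellate markers, 6 were lower and 1 higher with NSC than with vehicle, none called. Neutrophil markers summed to 3.82 to 11.6, 9.74 to 20.9 and 13.3 to 21.9 CPM, with 1 and 3 of 5 tested rising. Of 6 sinusoidal endothelial markers (176 to 188, 107 to 173 and 121 to 213 CPM), 2 fell after vehicle and 1 after NSC. B cell markers summed to at most 8.05 CPM and T cell markers to at most 1.52 CPM in any library, with 1 of 4 B cell markers and 0 of 1 tested T cell markers falling in each comparison, and erythroid markers to 85.3 to 285 CPM, with 1 of 3 tested falling. Of 8 hepatocyte markers, 3 fell after vehicle and 4 after NSC. No list held a marker at 0 in every library, and the part of cell composition in the values of p53 targets was not tested.

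The genes whose log2 levels were most like those of *Mdm2* over the 9 libraries were *Tnfrsf10b* (Pearson r = 0.992, Spearman rho = 0.933), *Il33* (r = 0.988, rho = 0.833) and *Tpd52* (r = 0.985, rho = 0.933). For *Ccng1* they were *Nudt5* (r = 0.991, rho = 0.967), *Klhdc2* (r = 0.991, rho = 0.933) and *Mettl9* (r = 0.988, rho = 1). For *Phlda3*, chosen for this description after its values were seen, they were *Kifc1*, *Cdca3* and *Arhgef39* (r = 0.995 to 0.997), and for *Trp53inp1*, chosen likewise, *Tfcp2l1*, *Gldc* and *Gtf2ird1* (r = 0.957 to 0.985). The 9 libraries form 3 groups and share their scaling, so these values describe mostly the step from baseline to remnant, except for *Trp53inp1*, whose widest spread lay within the baseline group.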

How the data were processed

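Whole liver RNA from 9 samples was sequenced from stranded libraries of polyadenylated RNA. Reads were aligned with STAR 2.6.1 in the MAP-RSeq pipeline and counted with featureCounts of Subread 1.5.1, and the authors deposited raw counts per gene without pooling replicates. The authors also deposited FPKM values, which proved to be the counts scaled by length and total, and these entered no test. The sources name hg38, whereas the table lists mouse Ensembl genes, of which 42462 of 43346 are in GENCODE M21 (GRCm38), 78.8% at the same coordinates. All 37 mitochondrial genes are listed at 0.

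Differences were tested in edgeR 4.0.16 under R 4.3.3 (TMM factors, filterByExpr, robust quasi-likelihood fit of all 9 libraries, condition as the only term, Benjamini-Hochberg adjustment over 15024 genes). The SE is the absolute log2 fold change divided by the square root of F. Tested on counts simulated for vehicle against baseline with 200 changed genes among 15024, the procedure recovered 89 at 2-fold and 160 at 4-fold, with 7 and 10 other genes called, and called 0 genes with no change. Alternatives were DESeq2 1.42.0, the exact test of edgeR, RLE factors, library size only, both looser and stricter count filters, only the 2 groups compared, a replicate block, an added fold threshold, a loess GC correction (span 0.5, GC known for 99.2% of genes) and leaving out each library. Chi-square values per gene between replicates were 25.2 to 152, so no library was a duplicate.

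The 10 members and all gene lists were chosen with earlier results of these data known. Named genes are the members, *Cdkn1a*, relatives of the members, per list and comparison at most 4 rising and 3 falling called genes by smallest adjusted p, and the 3 genes most like *Mdm2* and *Ccng1*. Genes named for their level in NSC replicate 1 or for a call without it, and the likeness of *Phlda3* and *Trp53inp1*, were chosen after seeing values. Promoter windows are from RefSeq (GRCm38.p6). The level of 3 counts reflects counting error alone. No gene of the table overlaps a member, and *Trp53-ps*, a pseudogene of *Trp53*, had at most 1 count in a library.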

Additional observations from a re-analysis of the deposited data

How the results depend on the processing

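Over 19 alternative settings, 169 of 189 member values after vehicle, 175 of 189 after NSC and 179 of 189 between remnants kept their direction and their side of the threshold. With an absolute log2 fold change over 1.5 as well, 1 member was called after vehicle and 1 after NSC, and 1085, 1222 and 3 of all genes were called in the 3 comparisons. Leaving out 1 library gave 4 to 7 called members after vehicle, 6 to 7 after NSC and 0 between remnants, and of all genes 2285 to 4538 after vehicle, 3604 to 5234 after NSC and 0 to 994 between remnants. The all-gene count between remnants was 6, and was 756 with DESeq2, 397 with the exact test, 221 with every gene of at least 1 count, 1 with library size only and 0 with the GC correction. Deviations of same-numbered samples correlated by −0.048 to 0.134, and those of differently numbered samples by −0.115 to 0.066. Those of same-numbered samples were above 0 except between baseline replicate 3 and vehicle replicate 3 (−0.048), and those of differently numbered samples lay on both sides of 0. The highest, 0.134, was between vehicle replicate 1 and NSC replicate 1, which come from different mice. These overlapping ranges do not settle whether numbers pair the samples or mark something else that they share. With the replicate block the member counts were 7, 6 and 0, and all-gene calls between remnants were 11. Directions that turned belonged to differences not called. Between remnants, *Bax* was 0.11 with library size only, 0.36 with the GC correction and −0.28 to 0.26 on leaving out 1 library (above 0 without NSC replicate 1), and *Bbc3* was 0.14 with the GC correction. *Mdm2* was −0.10 with the GC correction and −0.053 to 0.063 on leaving out 1 library (below 0 without vehicle replicate 1, vehicle replicate 2 or NSC replicate 2). *Phlda3* was −0.043 to 0.57 (below 0 without NSC replicate 2 or 3), and *Pmaip1* after vehicle was −0.19 to 1.83 (below 0 without baseline replicate 2); the cause of each was not tested. Library size only moved the median of all genes by 0.14 after NSC and 0.13 between remnants, and the GC correction by −0.11 after vehicle. Depth limits *Pmaip1*, with 1 to 37 counts, which could not be tested under at least 10 counts in every library.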
